A study of Mus musculus with 6 samples.

Results

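The 8 genes described here encode the transcriptional arm of the Hippo pathway: Yap1 and Wwtr1, the latter encoding TAZ, the 4 TEAD genes Tead1 to Tead4, and the vestigial-like genes Vgll3 and Vgll4. They were taken by gene symbol from the 37384 symbols of a count table, and all 8 were expressed highly enough to be tested. RNA was sequenced from adipocytes floated out of collagenase-digested inguinal subcutaneous white adipose tissue (scWAT) of male mice at postnatal day 7. There were 3 libraries from L1L2-FF mice (Lats1f/fLats2f/f) and 3 from L1L2-AKO littermates (Lats1f/fLats2f/fAdipoqCre), each made from adipocytes of 4 pooled mice. Both genotypes therefore carried the floxed Lats1 and Lats2 alleles, and Cre, driven by the adiponectin gene promoter, was present in L1L2-AKO alone. Recombination is limited to cells in which this promoter is or was active, so carried-over cells that never used it keep both Lats genes. The authors cite such activity in some fetal scWAT precursors, and its confinement to mature adipocytes after birth. They also report that adipocytes without Lats1 and Lats2 can become stromal progenitors. Total counts ranged from 30548473 to 32107917 per library.

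The Hippo pathway is a kinase cascade that ends in LATS1 and LATS2, which phosphorylate YAP and TAZ and thereby hold them in the cytoplasm or mark them for degradation. YAP and TAZ that escape phosphorylation enter the nucleus, where they bind DNA through TEAD proteins and switch on growth, cytoskeletal and matrix genes. VGLL proteins bind TEADs through a short Tondu domain, and VGLL4 competes with YAP and TAZ for them and acts as a repressor. In fat, TAZ is also known as a corepressor of PPARG, the master regulator of adipocytes. LATS acts on YAP and TAZ proteins after translation, so mRNA levels do not report on the activity of these factors.

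TEAD proteins recognise the letters GGAATG, or CATTCC on the other strand, and the start regions of these genes are shown because most of them hold these letters. RefSeq promoter windows (GRCm38.p6, 250 bases before to 50 bases after a transcript start) were at hand for 6 of the 8 genes, Tead1 and Tead4 being the exceptions. The 6 genes had 9 windows, of which 7 windows of 5 genes held GGAATG or CATTCC, against 14.7% of all 32851 promoter windows. The Wwtr1 windows overlap and share a match, whereas neighbouring Tead3 windows overlap without sharing one. The 4 windows below all hold a match and are written 5′ to 3′ on the gene's strand, with the 6 letters in capitals. A match describes the letters and does not show that a TEAD protein binds there.
Vgll3, chr16:65814939-65815238, plus strand: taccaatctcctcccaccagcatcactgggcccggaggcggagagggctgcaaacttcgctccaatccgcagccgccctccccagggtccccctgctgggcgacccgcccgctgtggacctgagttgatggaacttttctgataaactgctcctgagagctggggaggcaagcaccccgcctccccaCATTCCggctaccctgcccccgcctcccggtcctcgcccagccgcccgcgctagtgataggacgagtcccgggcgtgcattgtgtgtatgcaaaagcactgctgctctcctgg
Tead3, chr17:28350551-28350850, minus strand: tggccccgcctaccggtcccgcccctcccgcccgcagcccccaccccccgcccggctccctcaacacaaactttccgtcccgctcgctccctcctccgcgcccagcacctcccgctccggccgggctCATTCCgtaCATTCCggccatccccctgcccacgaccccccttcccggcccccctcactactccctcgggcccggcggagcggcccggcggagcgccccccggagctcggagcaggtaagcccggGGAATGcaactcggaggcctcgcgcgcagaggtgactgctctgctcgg
Yap1, chr9:8004547-8004846, minus strand: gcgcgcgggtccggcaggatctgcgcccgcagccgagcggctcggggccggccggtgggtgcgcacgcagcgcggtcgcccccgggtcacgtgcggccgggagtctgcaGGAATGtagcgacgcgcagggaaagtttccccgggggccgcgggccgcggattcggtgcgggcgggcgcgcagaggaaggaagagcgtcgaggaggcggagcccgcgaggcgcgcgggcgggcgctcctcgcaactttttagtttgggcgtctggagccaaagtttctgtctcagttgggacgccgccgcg
Wwtr1, chr3:57575861-57576160, minus strand: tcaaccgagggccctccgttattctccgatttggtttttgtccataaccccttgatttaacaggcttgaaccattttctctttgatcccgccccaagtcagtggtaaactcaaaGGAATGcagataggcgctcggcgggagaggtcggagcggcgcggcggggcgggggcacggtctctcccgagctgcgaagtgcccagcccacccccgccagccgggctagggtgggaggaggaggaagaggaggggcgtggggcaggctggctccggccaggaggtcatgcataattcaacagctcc
The first letter of the match stands at position -63 from the start in Vgll3, -141 in Yap1 and -136 in Wwtr1. This Tead3 window holds 3 matches, while another Tead3 window holds 1 and a further one holds 0. A single match stands at -82 in the Vgll4 window, and the Tead2 window holds none. The windows of these genes were rich in G and C, with 65.3% in Vgll3 and 74.0% in Yap1, against a median of 52.7% over all windows.

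The targeted genes were examined first. Lats1 stood at 76.1, 94.3 and 78.4 CPM (counts scaled to a common library size with TMM normalization) in L1L2-FF and at 38.9, 41.2 and 40.5 CPM in L1L2-AKO, a fall of 1.04 on the log2 scale (SE 0.118, edgeR adjusted p = 0.00131). Lats2 moved the other way, with 74.9, 85.7 and 68.5 CPM in L1L2-FF and 96.2, 126 and 135 CPM in L1L2-AKO (log2 fold change 0.64, SE 0.156, edgeR adjusted p = 0.0278). Lats2 is itself counted among the YAP and TAZ targets, and counts summed over a whole gene do not show which exons were lost. By quantitative PCR, the authors report lower mRNA of both targeted genes in adipocytes isolated from such mice at the same age. The whole-gene counts used here fell for Lats1 alone, and the rise of Lats2 does not decide whether its exons were deleted. Because these counts alone do not settle the genotype, the second group is called the libraries labelled L1L2-AKO below.

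Adipocyte markers were abundant in every library but lower in the libraries labelled L1L2-AKO. Their summed level was 16637 to 20814 CPM in L1L2-FF and 11917 to 14501 CPM in the other group, with 5 of 12 called lower. Over all tested genes, 9.28% were called higher and 7.18% lower, at an edgeR adjusted p under 0.05. Adipoq, named here because its promoter drives Cre, went from 2108 ± 349 to 877 ± 171 CPM (SD, n = 3). All 12 macrophage markers were called higher, from a summed 275 to 533 CPM to 1012 to 1128 CPM, and none of them was at 0 in all libraries. Of 7 Schwann cell markers 4 were called lower (472 to 1219 CPM against 152 to 382 CPM), of 7 mural markers 2 lower and 1 higher, of 10 endothelial markers 1 lower and of 10 adipose progenitor markers 2 lower. The 7 markers of T and B cells summed to 7.35 to 20.8 CPM in L1L2-FF and 10.9 to 21.02 CPM in the other group, with none of the 7 called. Muscle markers summed to at most 19.8 CPM and epithelial markers to at most 6.19 CPM. These marker levels differed between the same 2 groups as every result below, and their part in those results was not tested. In RNA from whole fractions, fewer cells of a type and less RNA per cell cannot be told apart.

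Of the 8 genes, Vgll3, Tead1 and Tead3 rose in the libraries labelled L1L2-AKO and none fell past the threshold of adjusted p under 0.05 (edgeR). The share called higher was 37.5% of these genes, against 9.28% of the 15674 tested genes called higher, 7.18% called lower and 16.5% called in either direction. At an unadjusted p under 0.05, 4 genes were higher and 1, Wwtr1, was lower. DESeq2 called 1 gene lower, again Wwtr1, and limma-voom called 0. The 3 libraries of one group did not overlap the 3 of the other in 6 of the 8 genes, 4 higher and 2 lower, where 36.4% of all tested genes did not overlap. The median log2 fold change of the 8 genes was 0.46, against -0.02 over all tested genes.

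**Figure D1:**
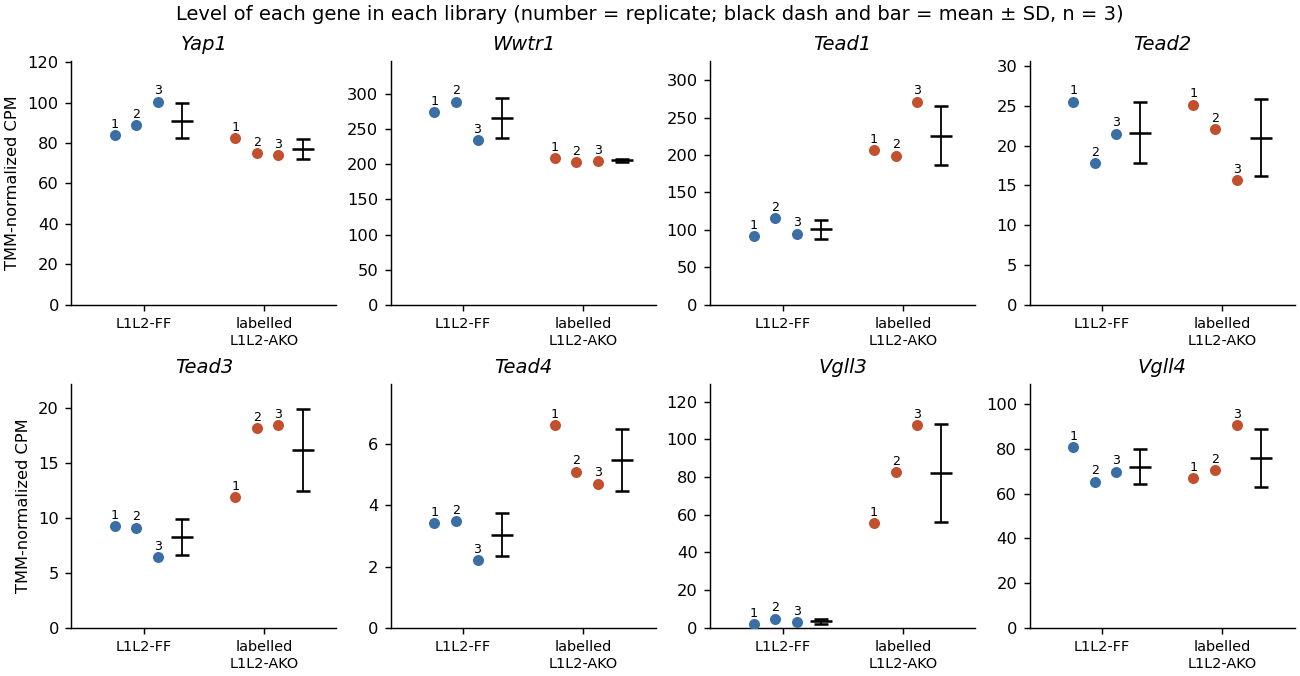
Level of each of the 8 genes in each library, in TMM-normalized CPM on a linear axis that starts at 0, with L1L2-FF in blue and the libraries labelled L1L2-AKO in orange. Numbers are replicates, and the black dash and bar give the mean ± SD (n = 3). Vgll3 went from 2.11 to 4.85 CPM up to 55.7 to 108 CPM, while Tead2 and Vgll4 overlapped between the groups.

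Neither coactivator gene had a higher mean in the libraries labelled L1L2-AKO. Yap1 (ENSMUSG00000053110.13, mm10 chr9:7931999-8004596, minus strand) was at 83.9, 88.8 and 100.5 CPM in L1L2-FF and at 82.6, 74.9 and 73.8 CPM in the libraries labelled L1L2-AKO. The groups just failed to touch, with L1L2-FF replicate 1 next to replicate 1 of the other group, and they overlapped when libraries were scaled by total count alone. The mean went from 91.1 ± 8.51 to 77.1 ± 4.77 CPM (SD, n = 3), a log2 difference of -0.24 with a 95% interval of -0.50 to 0.02 (edgeR adjusted p = 0.198). The interval leaves out any rise of more than 0.02 on the log2 scale.

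Wwtr1 (ENSMUSG00000027803.14, chr3:57455649-57575910, minus strand) was at 275, 289 and 235 CPM in L1L2-FF. The libraries labelled L1L2-AKO lay close together at 209, 204 and 204 CPM, all below the lowest L1L2-FF library. The means were 266 ± 28.2 and 206 ± 2.78 CPM (SD, n = 3), with a log2 difference of -0.37 (95% interval -0.66 to -0.09). The difference missed the threshold in edgeR (adjusted p = 0.0762) and passed it in DESeq2 (adjusted p = 0.0407). It also passed in edgeR without L1L2-FF replicate 3, the lowest library of its group (log2 difference -0.46, adjusted p = 0.0394).

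The proportion of Yap1 to Wwtr1 overlapped between the groups. Per kilobase of exon, Yap1 made up 13.6%, 13.7% and 18.1% of the summed Yap1 and Wwtr1 level in L1L2-FF and 17.0%, 16.0% and 15.7% in the group labelled L1L2-AKO. These percentages depend on the length taken for each gene. The log2 ratio of Yap1 to Wwtr1 was -2.50 ± 0.279 in L1L2-FF and -2.37 ± 0.0692 in the other group (exact permutation test, two-sided, p = 0.4, where the smallest p that 3 libraries against 3 allow is 0.1). Both genes overlap a gene on the opposite strand, Gm20416 for Yap1 and Gm16016 for Wwtr1, and whether counting used strand is not given in the sources used here. Of the 50-base stretches of Yap1 transcripts, 1.35% occur in transcripts of another gene.

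Among the TEAD genes, which encode the DNA-binding partners of YAP and TAZ, Tead1 and Tead3 were called higher. Tead4 had a higher mean but was not called, and Tead2 hardly changed. Tead1 (ENSMUSG00000055320.17, chr7:112679318-112906807, plus strand), the most abundant TEAD gene per kilobase in all 6 libraries, was at 91.5, 116 and 94.8 CPM in L1L2-FF. It was at 207, 199 and 271 CPM in the libraries labelled L1L2-AKO, each of them above every L1L2-FF library. The means were 101 ± 13.1 and 226 ± 39.6 CPM (SD, n = 3), a 2.24-fold rise (log2 fold change 1.16, SE 0.162, 95% interval 0.79 to 1.54, edgeR adjusted p = 0.00292). Of the tested genes, 907 had a larger log2 fold change than Tead1. Tead1 overlaps 2310014F06Rik on the opposite strand and Gm44462 on its own, so part of its counts could belong to them.

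Tead3 (ENSMUSG00000002249.21, chr17:28331671-28350817, minus strand) was a weakly expressed TEAD gene, at 9.26, 9.12 and 6.41 CPM in L1L2-FF. In the libraries labelled L1L2-AKO it was at 11.9, 18.2 and 18.5 CPM, where replicate 1 stood between the other 2 and the L1L2-FF libraries. The rise was 1.96-fold (log2 fold change 0.97, SE 0.227, 95% interval 0.45 to 1.49, edgeR adjusted p = 0.0242). The call was lost when L1L2-FF replicate 1 (adjusted p = 0.0607) or replicate 3 (0.0539) was left out, and likewise when L1L2-AKO replicate 2 (0.0943) or replicate 3 (0.0871) was left out, with log2 fold changes between 0.81 and 1.05 in these fits.

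Tead4 (ENSMUSG00000030353.15, chr6:128224288-128300823, minus strand) was the TEAD gene of the lowest level, with 107, 113 and 69 counts in L1L2-FF and 220, 161 and 135 counts in the group labelled L1L2-AKO. These correspond to 3.42, 3.49 and 2.22 CPM against 6.64, 5.11 and 4.71 CPM, so the groups did not overlap. Its log2 difference of 0.85 (SE 0.253, 95% interval 0.27 to 1.43) fell just short in edgeR (adjusted p = 0.0556). It passed in DESeq2 (adjusted p = 0.0162) and in edgeR with no filter on low counts (adjusted p = 0.0493). Tead4 overlaps Gm21893 on the opposite strand.

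Tead2 (ENSMUSG00000030796.17, chr7:45215753-45233644, plus strand) was at 25.5, 17.8 and 21.5 CPM in L1L2-FF and at 25.2, 22.1 and 15.7 CPM in the libraries labelled L1L2-AKO. The groups covered almost the same range, with a log2 difference of -0.04 (95% interval -0.51 to 0.43, edgeR adjusted p = 0.920). Its 95% interval lies wholly below that of Tead1, although the difference between the changes of these genes was not tested. Tead2 overlaps Cd37, a leukocyte gene on the opposite strand.

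**Figure D2:**
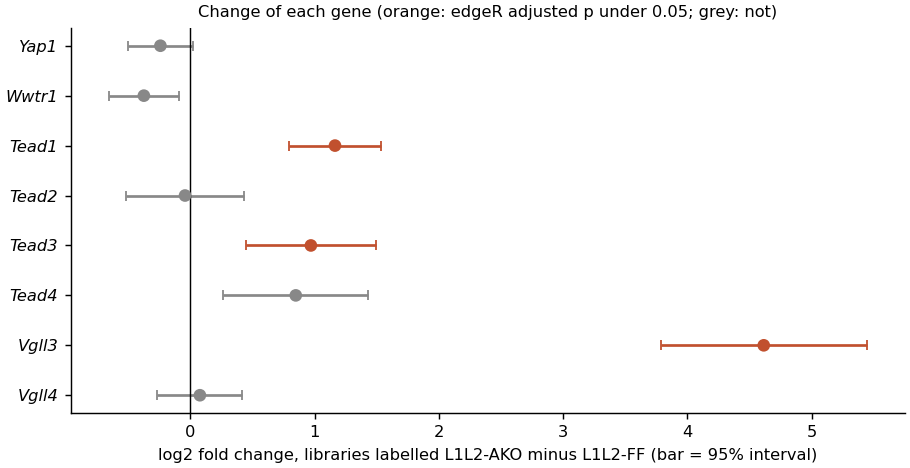
Log2 fold change of each gene, libraries labelled L1L2-AKO minus L1L2-FF, with 95% intervals from the edgeR fit. Orange marks an edgeR adjusted p under 0.05. Vgll3 stands at 4.61, Tead1 at 1.16 and Tead3 at 0.97, and the intervals of Yap1, Tead2 and Vgll4 cover 0.

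The largest log2 fold change of the 8 genes was that of a vestigial-like gene. Vgll3 (ENSMUSG00000091243.2, chr16:65815257-65866368, plus strand), a TEAD cofactor known to restrain adipocyte differentiation, was low but detected in L1L2-FF with 66, 157 and 95 counts. The libraries labelled L1L2-AKO held 1847, 2608 and 3088 counts. In CPM these were 2.11, 4.85 and 3.06 against 55.7, 82.7 and 108, so the lowest library of the second group exceeded the highest of the first by far. The rise was 24.5-fold with a 95% interval of 13.8 to 43.5 (log2 fold change 4.61, SE 0.360, edgeR adjusted p = 0.000389). Of the 15674 tested genes, 47 had a larger log2 fold change. No annotated gene overlaps Vgll3 and none of its 50-base stretches occurs in transcripts of another gene. Its log2 fold change lay between 4.36 and 4.99 when each library was left out in turn.

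Vgll4 (ENSMUSG00000030315.15, chr6:114860628-114969994, minus strand), the repressor that competes with YAP and TAZ for TEADs, was at 80.8, 65.4 and 69.9 CPM in L1L2-FF and at 66.8, 70.5 and 90.8 CPM in the libraries labelled L1L2-AKO. The groups overlapped, and the log2 difference was 0.08 (95% interval -0.26 to 0.42, edgeR adjusted p = 0.777). Of the other vestigial-like genes, Vgll1 had 0 counts in all 6 libraries and Vgll2 had 2, 0 and 3 counts in L1L2-FF and 0 in each library labelled L1L2-AKO, so neither was tested.

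Levels were compared between genes only per kilobase, as RPKM (TMM-normalized CPM divided by the summed length of all annotated exons in kilobases). In L1L2-FF the order was Wwtr1 at 55.7 ± 5.91 RPKM, Vgll4 at 13.3 ± 1.47, Yap1 at 9.84 ± 0.919, Tead1 at 7.42 ± 0.962, Tead2 at 4.52 ± 0.807, Tead3 at 1.23 ± 0.239, Tead4 at 0.846 ± 0.198 and Vgll3 at 0.470 ± 0.196 RPKM (SD, n = 3). Wwtr1 thus stood far above the rest at this length. The libraries of neighbours in this order overlapped for Tead3 and Tead4 and for Tead4 and Vgll3. The order was the same when the length of the longest transcript was used, but the lead of Wwtr1 was smaller. Wwtr1 was then at 56.7, Vgll4 at 32.8 and Yap1 at 17.2 RPKM.

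In the libraries labelled L1L2-AKO Vgll3 left the last place. Wwtr1 remained first at 43.0 ± 0.581 RPKM, followed by Tead1 at 16.6 ± 2.92, Vgll4 at 14.1 ± 2.39, Vgll3 at 11.6 ± 3.67, Yap1 at 8.33 ± 0.515, Tead2 at 4.38 ± 1.01, Tead3 at 2.41 ± 0.554 and Tead4 at 1.53 ± 0.282 RPKM. Each pair of neighbours from Tead1 to Yap1 overlapped between libraries, as did Tead3 and Tead4. With the longest transcript as the length Wwtr1 was at 43.8 RPKM, less far above Vgll4 at 34.6. Tead1 at 22.6, Yap1 at 14.6 and Vgll3 at 11.7 RPKM followed. The place of Vgll3 among these genes thus depends on the length used.

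**Figure D3:**
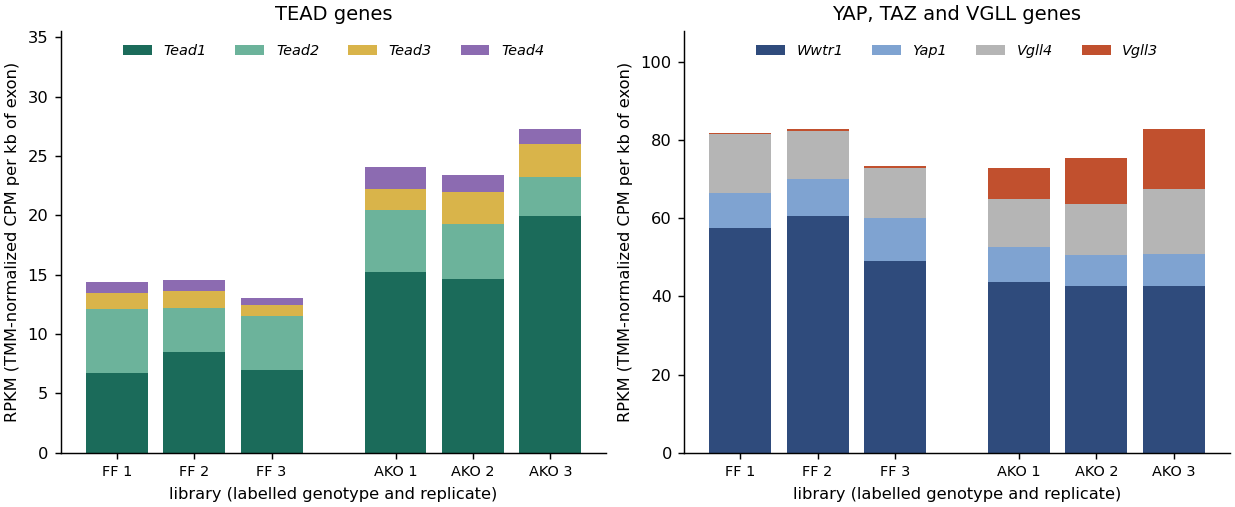
Stacked RPKM of the TEAD genes (left) and of Wwtr1, Yap1, Vgll4 and Vgll3 (right) in each library, FF for L1L2-FF and AKO for the libraries labelled L1L2-AKO. The TEAD columns are 13.1 to 14.6 RPKM high in L1L2-FF and 23.4 to 27.3 RPKM in the other group, and the Vgll3 segment is visible mainly on the right.

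The summed TEAD level was 14.4, 14.6 and 13.1 RPKM in L1L2-FF and 24.1, 23.4 and 27.3 RPKM in the libraries labelled L1L2-AKO. Tead1 made up 46.8%, 58.5% and 53.5% of it in L1L2-FF and 63.2%, 62.7% and 73.1% in the other group, where the lowest library lay above the highest L1L2-FF library. The share of Tead2 went from a mean of 32.3% ± 6.03 to 17.8% ± 5.16 (SD, n = 3). Tead3 held 8.74% ± 1.24 and 9.68% ± 2.13, and Tead4 held 5.997% ± 1.10 and 6.17% ± 1.43. Sums and shares over several of the genes are described without a test.

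Ratios between the cofactor levels were compared next and, like the sums, are described without a test. The summed Yap1 and Wwtr1 level was 66.5, 70.1 and 60.0 RPKM in L1L2-FF and 52.6, 50.7 and 50.7 RPKM in the libraries labelled L1L2-AKO. Divided by the level of Vgll4 it was 4.44, 5.79 and 4.63 in L1L2-FF and 4.25, 3.88 and 3.02 in the other group, so L1L2-FF replicate 1 lay only a little above replicate 1 of the other group. Divided by the summed TEAD level, a ratio chosen after the values were seen, it was 4.62, 4.82 and 4.59 against 2.18, 2.16 and 1.86. The ratio of Vgll3 to Vgll4, also chosen afterwards, was 0.0198, 0.0564 and 0.0333 in L1L2-FF and 0.634, 0.891 and 0.902 in the group labelled L1L2-AKO. The size of these ratios depends on the length used: with the longest transcript, Vgll3 was at 11.7 and Vgll4 at 34.6 RPKM in the libraries labelled L1L2-AKO.

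The genes whose profiles over the 6 libraries lay nearest to those of the coactivators were sought among 10067 tested genes whose average log2 CPM reached 3, by the Euclidean distance between centred log2 CPM values. Exoc3 (distance 0.0807) and Eif2b1 (0.104) lay nearest to Yap1. Orc5 (0.0757), Cfap97 (0.0852) and Nbr1 (0.0863) lay nearest to Wwtr1. These 5 genes had lower means in the libraries labelled L1L2-AKO, with log2 differences between -0.34 and -0.20, and none of the 5 was called.

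Genes around these factors were then followed by role. Over all tested genes, 9.28% were called higher and 7.18% lower, 16.5% in either direction. Of 22 genes of a YAP and TAZ target signature, 21 were tested, 11 rose and 1 fell, with a median log2 fold change of 1.27. Igfbp3, which encodes a binding protein of insulin-like growth factors, rose from 24.96, 43.4 and 26.8 CPM to 173, 620 and 619 CPM (log2 fold change 3.89, edgeR adjusted p = 0.00220). Crim1, encoding a transmembrane regulator of bone morphogenetic proteins, rose from 82.9, 105 and 77.6 CPM to 176, 324 and 372 CPM (log2 fold change 1.72, edgeR adjusted p = 0.00500). In both genes L1L2-AKO replicate 1 was the lowest of its group, as it was for Vgll3, Tead3 and Vgll4. The same library was the highest of its group for Yap1, Wwtr1, Tead2 and Tead4, and in between for Tead1. Ankrd1, a classical YAP target encoding a muscle ankyrin repeat protein, had 1, 0 and 1 counts in L1L2-FF and 24, 42 and 23 counts in the group labelled L1L2-AKO. It passed the filter on low counts only through the latter group, so no p is given. It is among the 11 genes that rose, and 10 rose when every library had to hold at least 10 counts. Ankrd1 also enters the median of 1.27, and without it the middle values of the list are 1.27 and 0.83. Nt5e, encoding an enzyme that makes adenosine, fell by 1.36 on the log2 scale (edgeR adjusted p = 0.00865). The number of target genes called higher was 7 when either L1L2-FF replicate 1 or L1L2-AKO replicate 2 was left out.

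Of 17 Hippo kinases and scaffolds, 6 rose, 2 fell and 9 were not called, with a median log2 fold change of 0.07. For comparison, 16.5% of all tested genes were called. Wwc1, which encodes the scaffold KIBRA, went from 2.11, 5.75 and 3.84 CPM to 45.3, 67.1 and 75.8 CPM (log2 fold change 4.01, SE 0.361, edgeR adjusted p = 0.000571). Like Vgll3 it was low but detected in L1L2-FF and far higher in each library labelled L1L2-AKO. Besides Lats1, the gene that fell was Stk38l, encoding a kinase related to LATS (log2 difference -0.71, edgeR adjusted p = 0.0297). Lats2, Stk4, Sav1, Wwc2 and Taok3 rose by 0.61 to 0.64 on the log2 scale.

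Of 14 genes whose proteins bind YAP and TAZ in the cytoplasm, 2 rose, 1 fell and 11 were not called, with a median of 0.03. The share called over all tested genes was 16.5%. The angiomotin-like genes, whose proteins tether YAP and TAZ at junctions, went in opposite directions. Amotl2, also a member of the target signature, was at 272, 443 and 235 CPM against 610, 906 and 1042 CPM (log2 fold change 1.43, edgeR adjusted p = 0.0134). Amotl1 was at 168, 163 and 152 CPM against 116, 84.0 and 83.0 CPM (log2 difference -0.77, edgeR adjusted p = 0.0128). Ywhaz, encoding an adaptor that binds phosphorylated proteins, rose by 0.49 on the log2 scale (edgeR adjusted p = 0.0469).

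Of 12 nuclear partners of YAP, TAZ, TEAD or VGLL4, 11 were tested, 2 rose, 1 fell and 8 were not called, with a median of 0.16. Again, 16.5% of all tested genes were called in either direction. Runx1, a transcription factor that can bind YAP, rose from 3.61, 5.97 and 4.87 CPM to 11.2, 16.1 and 14.3 CPM (log2 fold change 1.53, edgeR adjusted p = 0.00419). Pparg, whose protein binds TAZ, fell from 384, 362 and 379 CPM to 264, 239 and 246 CPM (log2 difference -0.59, edgeR adjusted p = 0.0123), and it is also 1 of the adipocyte markers given above. Smad3, which transmits TGF-beta signals, rose by 0.45 on the log2 scale (edgeR adjusted p = 0.0364).

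**Figure D4:**
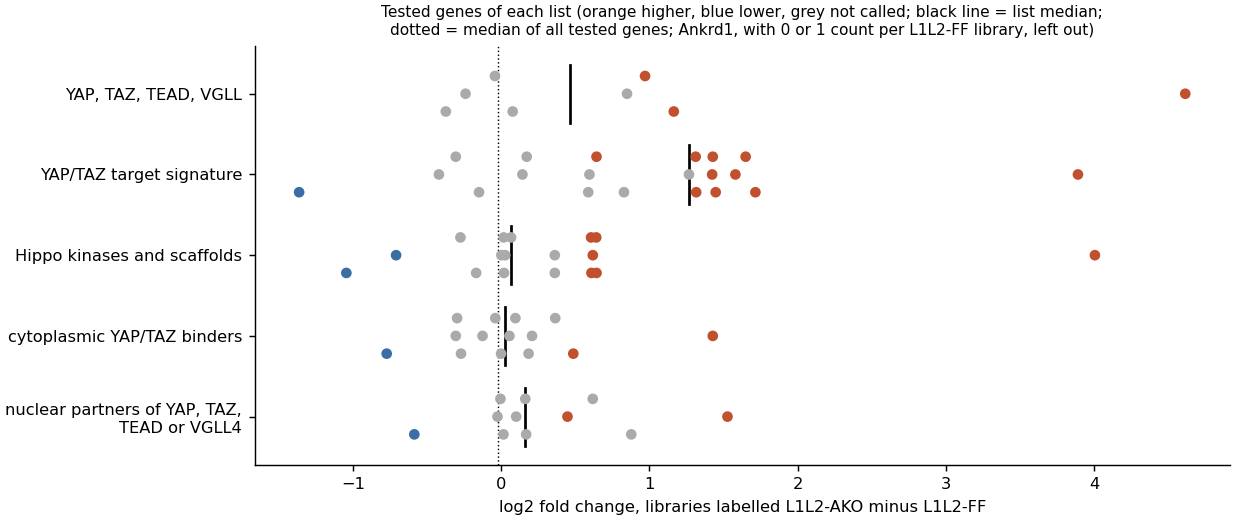
Log2 fold change of the tested genes of the 8-gene set and of 4 pathway lists, with the list's median as a black line and the median of all tested genes, -0.02, dotted. Orange marks genes called higher and blue genes called lower in the libraries labelled L1L2-AKO. Ankrd1 is left out of the points because its L1L2-FF libraries held 0 or 1 count, but the median line of the target signature includes it. That line, at 1.27, is the highest among the 5 sets drawn.

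Across the other settings tried, Vgll3 and Tead1 were called higher in all 14, and Yap1, Tead2 and Vgll4 were called in none of them. Tead3 was called in 10 of the 14 settings, Tead4 in 3 and Wwtr1 in 2.

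**Figure D5:**
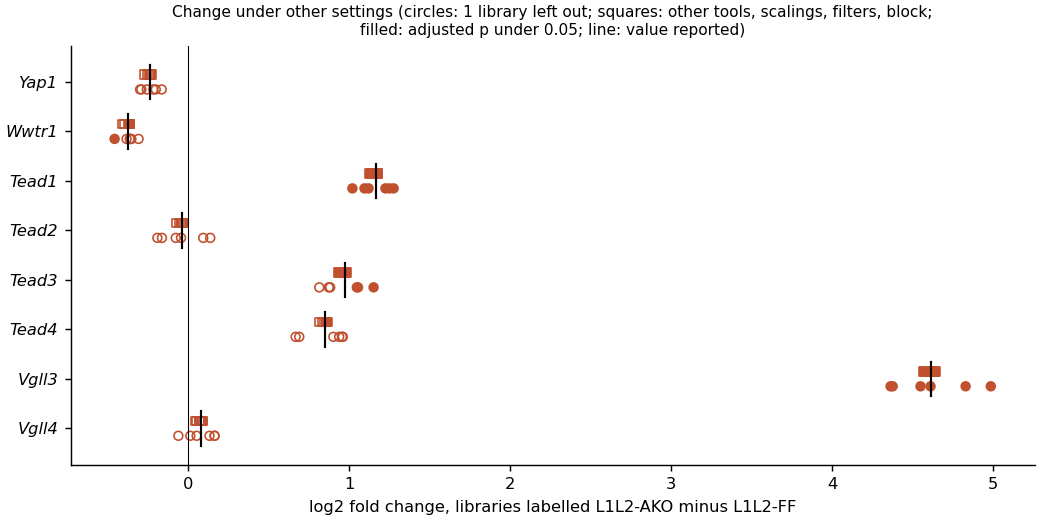
Log2 fold change of each gene in the 14 other settings: circles leave out 1 library, and squares change the tool, the scaling, the filter on low counts or the block. Filled symbols have an adjusted p under 0.05 and the black line is the reported value. The symbols of Vgll3 and Tead1 are filled throughout, whereas those of Tead2 and Vgll4 lie on both sides of 0.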

How the data were processed

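The authors read paired ends on a BGISEQ-500, aligned the reads to mm10 with HISAT2 2.1.0 and analysed the alignments with StringTie 1.3.5. The deposited table gives whole, unnormalized read counts for each gene symbol. The annotation, the counting program and its use of strand are not given in the sources used here.

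Counts were tested as deposited in R 4.3.3 with the quasi-likelihood test of edgeR 4.0.16 on all 6 libraries, after filterByExpr (minimum count 10 and minimum total 15, so that 15674 genes stayed and 21710 did not) and TMM normalization. P-values were two-sided and adjusted over all tested genes by the Benjamini-Hochberg method, with a threshold of 0.05. The SE was taken as the size of the log2 fold change over the root of its F statistic, and intervals are at 95%. The common biological coefficient of variation was 0.206. Positions, overlaps and exon lengths come from GENCODE M21, and promoters from RefSeq. DESeq2 1.42.0, limma 3.58.1, other scalings, other filters, a replicate block and leaving out each library were tried as alternatives. The fitting code was tested on simulated data.

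The authors describe biological replicates, and each library is a pool of 4 mice. Replicate libraries of a genotype differed by more than sampling noise, so each counted as 1. Deviations of same-numbered libraries of the genotypes had correlations of 0.188, 0.255 and -0.054, and those of differently numbered libraries ranged from -0.324 to 0.211. These values do not settle whether the libraries were paired, and the numbers were not taken as pairs. Members and gene lists were chosen with earlier results of these data known. Named besides the 8 genes are Lats1, Lats2 and, in each pathway list, the called genes with the 3 largest absolute changes, and the genes with profiles nearest to Yap1 and Wwtr1, of which 1 is not reported here. Adipoq, Nt5e, Stk4, Sav1, Wwc2 and Taok3 fall outside this rule and were named after their values were seen. Exact permutation tests planned for sums and shares over several of the genes are not reported, since those quantities are described only.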

Additional observations from a re-analysis of the deposited data

How the results depend on the processing

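With 3 libraries a genotype the calls near the threshold depended on single libraries or on the tool, and the causes were not tested. DESeq2's Wald test called 1 of the 8 genes lower, Wwtr1 (log2 difference -0.36, adjusted p = 0.0407), and Tead4 higher (0.86, adjusted p = 0.0162). Tead4 also passed with no filter on low counts (0.85, adjusted p = 0.0493) and with the replicate block (0.86, adjusted p = 0.0430). The block left 2514 genes past the threshold against 2580 and changed no other call among the 8 genes, and the replicate numbers are not shown to pair the libraries. Leaving out 1 library at a time, the genes past the threshold numbered 1281 to 2845, with 1290 when L1L2-FF replicate 1 was left out and 1281 or 1374 when L1L2-AKO replicate 2 or 3 was. The genes of the set called lower numbered 0 to 1, the target genes called higher 7 to 13, and the log2 differences spanned -0.46 to -0.31 for Wwtr1 and 0.81 to 1.15 for Tead3. Tead2 ranged from -0.19 to 0.14, turning positive without L1L2-FF replicate 1 (0.092) or L1L2-AKO replicate 3 (0.14), and Vgll4 from -0.062 to 0.16, turning negative without the latter library. Neither was called in any setting. Upper-quartile scaling lowered the share of calls that were higher from 56.4% to 50.9%, and DESeq2 called 3374 genes.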
